A study of Gorilla gorilla gorilla with 14 samples.

Results

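Basal intermediate progenitors (bIP) from gorilla cerebral organoids were profiled by bulk ATAC-seq in 2 series of libraries, and their chromatin accessibility is compared here between those series. In ATAC-seq a transposase cuts open DNA, so that reads collect where chromatin is accessible. The bIP libraries were taken by their cell type label and split by library number, which gave 3 libraries in the first series (replicates 1 to 3) and 2 in the second (replicates 4 and 5), 5 of the 14 libraries in all. Every group came from the same line of induced pluripotent stem cells, GC1, at week 8 of organoid culture and was isolated by fluorescence-activated sorting. The labels give no difference in genotype, treatment, age or protocol between the series, and no treated or edited group. The same 2 series also held apical radial glia (aRG, 2 libraries in the first and 1 in the second) and neurons (N, 2 and 2), while basal radial glia (bRG, 2 libraries) were only in the second. All values rest on 1 cell line. Whether replicates stem from separate cultures is not stated, so the spread that enters each p-value is that between libraries and may be technical.

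Intermediate progenitors are the transit-amplifying cells of the developing cortex. They arise from radial glia, the stem cells at the ventricle, leave the ventricular surface, switch on the transcription factor EOMES and divide to give excitatory neurons. Genes of the proneural programme (NEUROG1, INSM1, NEUROD1, HES6) are open and active in them, while radial glial genes such as SOX2 and HES1 are being closed down. Accessibility is given in CPM, the count of a region scaled to the size of its library with edgeR's TMM factors. The EOMES promoter was most accessible in the libraries labelled bIP, at 60.0 to 108 CPM, against 22.5 to 46.8 in the aRG and bRG libraries and 32.7 to 42.6 in the N libraries. The proneural promoters overlapped between bIP and other cell types. HES6 had 43.5 to 92.0 CPM in bIP and 53.1 to 66.6 in aRG and bRG, and NEUROG1 24.5 to 48.9 against 24.1 to 38.2. INSM1 had 43.9 to 73.0 CPM in bIP, 23.3 to 46.0 in aRG and bRG and 38.3 to 58.1 in N. NEUROD1 had 25.6 to 46.6 CPM in bIP and 14.8 to 30.1 in N.

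Of 204249 regions with a gorilla position, 190524 had enough counts in the bIP libraries to be tested. Totals ranged from 12834983 to 26378687 counts in the first bIP series and were 24561258 and 23682476 in the second. The floor of 3 counts lay between 0.113 and 0.208 CPM. Replicates 1 and 2 were close to sampling noise, with a chi-square of 1.09 per degree of freedom over 180427 regions, against 2.68 and 3.27 for the other pairs of the first series, 3.64 within the second, and 5.97 to 9.07 across the series. Pearson correlation of log2(CPM + 1) across regions was 0.970 to 0.987 within a series and 0.943 to 0.952 across them. Regions are not independent replicates, so these correlations only describe the libraries. The share of counts in promoter regions, those listed at most 1000 bp from a gene, was 35.9%, 35.8% and 32.8% in the first series and 35.7% and 37.6% in the second. That difference was within the spread (exact permutation test, two-sided, p = 0.6, where 10 splits allow no p below 0.1).

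The second series differed from the first in many regions and in both directions. Differences are given as log2 of the second over the first series, with the standard error of the edgeR quasi-likelihood model. At an adjusted p (Benjamini-Hochberg) under 0.05, 16684 regions were higher in the second series, 8.76% of those tested, and 11792 were lower, 6.19%. At least 2-fold differences made up 7857 of the higher regions (4.12% of all tested) and 8992 of the lower ones (4.72%). In 49.6% of all tested regions the CPM values of the 2 series did not overlap. Among promoter regions 1896 of 20142 (9.41%) were higher and 546 (2.71%) lower, whereas among the 170382 distal regions 8.68% were higher and 6.6% lower. With 1 promoter region kept for each protein-coding gene, 771 of 10076 (7.65%) were higher and 161 (1.6%) lower, with a median difference of 0.25.

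These counts moved with single libraries and with the scaling. Without replicate 5 the calls fell to 8109 higher and 3175 lower, and among promoters to 631 and 138. The calls without replicate 1 were 10575 and 6617 (promoters 1199 and 276), and without replicate 2 they were 10557 and 6730 (promoters 1070 and 289). Without replicate 3 the higher promoters numbered 1158, and without replicate 4 the lower regions and promoters numbered 7088 and 272. Of all calls, 58.6% were higher in the second series. That share was 35.3% with scaling to total counts, 38.3% with TMM factors taken from promoter regions and 73.9% with DESeq2. The promoter TMM factors were a choice made after the data were seen. Among promoters the higher share of calls was 77.6%, against 55.8%, 62.4% and 89.3% in the same order, and 56.2% after a loess correction for level. With only regions of at least 10 CPM in 2 bIP libraries it was 43.0%, with 770 promoters higher and 1019 lower. The median over all regions was −0.07 and moved to −0.27 with total counts and −0.28 with promoter TMM factors.

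Differences ran with the level of a region. With the regions split into 5 groups of equal size by mean bIP level, the median difference in the lowest group was −0.50 at promoters and −0.49 at distal regions. In the highest group it was 0.27 and 0.28. Promoters and distal regions of the same group thus had nearly the same median, and 12618 of the 20142 promoter regions lay in the highest group. Distal regions over 100 kb from their listed gene had a median of −0.19. After the loess correction the medians of promoter and distal regions were both −0.01.

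**Figure D1:**
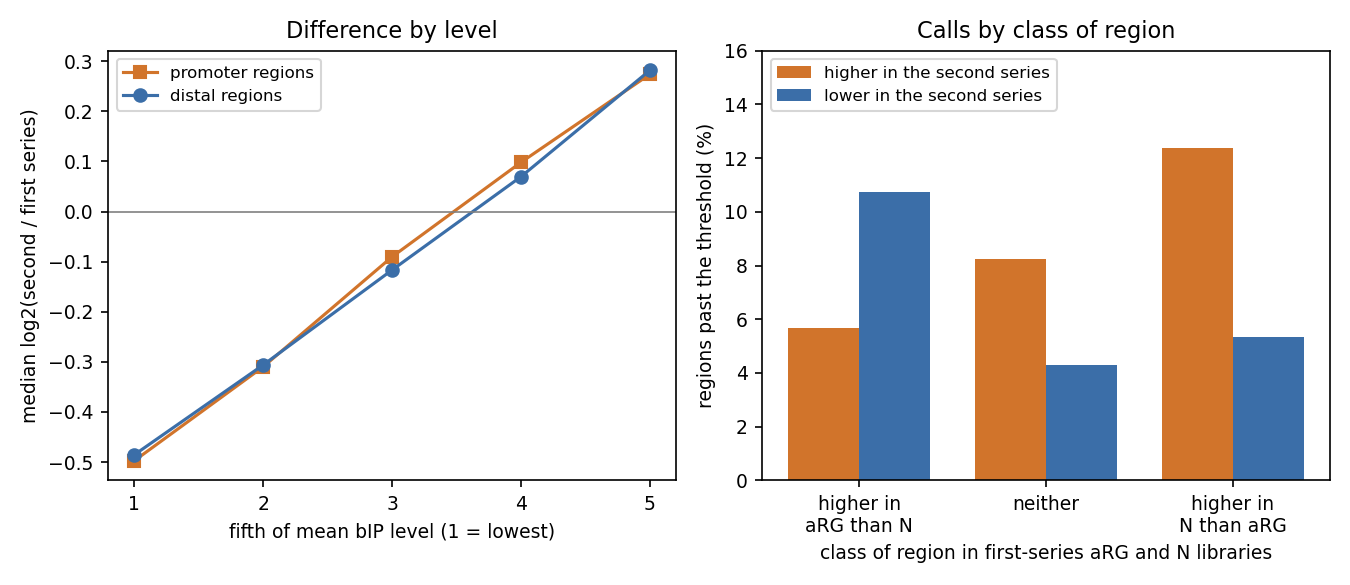
Left, median log2 difference between the series in bIP (y axis) by group of mean bIP level (x axis, 1 lowest to 5 highest), for promoter and distal regions: both lines climb from about −0.5 in the lowest group to 0.27 and 0.28 in the highest. Right, percentage of regions past the threshold in each direction (bars from 0) by the class of the region in first-series aRG and N libraries: regions higher in aRG than N were more often lower in the second series, and the other classes were more often higher.

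The regions that separate stem cells from neurons were shifted unevenly. Regions were classed from the first-series aRG and N libraries, which are not bIP libraries. Of the 47724 regions at least 2-fold more open in aRG than in N, 5.66% were higher and 10.7% lower in the second bIP series, with a median of −0.21. Of the 53064 regions more open in N than in aRG, 12.4% were higher and 5.33% lower, with a median of −0.04. Regions in neither class had 8.26% and 4.29%, and a median of −0.01. By library the difference was small: regions more open in aRG took 23.0%, 22.6% and 21.4% of all counts in the first series and 22.0% and 18.5% in the second (exact permutation p = 0.3), and regions more open in N took 17.0%, 17.1% and 19.1% against 18.1% and 19.6% (exact permutation p = 0.3). Replicate 5 had the lowest share of the first kind and the highest share of the second. In bulk libraries, a different share of cells in which a region is open and a different degree of opening per cell cannot be told apart.

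At some promoters a region was nearly closed in one series and open in the other. Of 10076 protein-coding promoters, 20 were at least 4-fold higher in the second series and 6 at least 4-fold lower, counting those with at least 1 CPM in either series. In all 26 the libraries of the 2 series did not overlap, as was also so at 6157 of the 10076. The 20 stayed past the threshold in every alternative in which they could be tested, apart from ZNF560 with DESeq2. Of the 6 lower ones PCK1 alone was lost, with DESeq2, with the loess correction and without replicate 2, 4 or 5.

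Those 26 hold only promoters whose gene name was matched to the protein-coding table. PEG3 and the clustered protocadherins PCDHGA3, PCDHA10 and PCDHA5 (log2 differences of 4.45, 4.29 and 2.84) also passed 4-fold but are not among them. PEG3 had the largest difference of the named promoters. It is a paternally expressed imprinted gene that codes for a zinc finger protein. Its promoter region (gorGor6 chr19:46654113-46655504) had 0.188, 0.194 and 0.416 CPM in replicates 1 to 3, from 5, 3 and 6 counts, and 101 and 113 CPM in replicates 4 and 5. The log2 difference was 8.70 ± 0.33 (SE, edgeR adjusted p = 1.14e-18). A neighbouring region 2221 bp from the gene (chr19:46652905-46653884) had 0.226, 0.258 and 0.208 CPM against 49.5 and 56.7, a difference of 7.81 ± 0.30. The first series was thus close to its floor at both regions, and leaving out any 1 bIP library kept the promoter difference between 8.44 and 9.09. The same jump was in the other cell types: the promoter had 0.278 and 0.312 CPM in first-series aRG and 93.0 in second-series aRG, 0.360 and 0.824 in first-series N and 61.1 and 110 in second-series N, and 76.9 and 69.1 in the bRG libraries, which are all of the second series. PEG3 shares its start with ZIM2 in other primates, so reads there cannot be given to 1 gene alone.

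Of the 20 higher promoters 4 lay on chromosome 19, 3 on chromosome 5 and 3 near the start of chromosome 3. The share of all protein-coding promoters in these places is not given here, so the counts do not show a grouping. Those on chromosome 5 (PCDHB5, PFN3 and KRTAP16-1) lay far apart. Those near the start of chromosome 3 are in genes of cell adhesion and of neuronal signalling, a trait not shared by the 20 as a set. CHL1, a neural adhesion molecule of the L1 family (promoter at chr3:192185-194393), had 0.264, 0.645 and 1.11 CPM in the first series and 12.6 and 13.8 in the second, a difference of 4.44 ± 0.31 (edgeR adjusted p = 1.26e-11). CNTN4, an axonal contactin (chr3:2108235-2110424), had 3.35, 3.03 and 5.20 CPM against 38.1 and 40.3, a difference of 3.36 ± 0.22 (adjusted p = 2.57e-12). Its relative CNTN6 (chr3:1105474-1106500) had a mean of 1.13 ± 0.0811 CPM (SD, n = 3) against 3.55 ± 0.0199 (n = 2), a difference of 1.65. GRM7, a presynaptic metabotropic glutamate receptor (chr3:6898386-6900526), had 1.58, 1.68 and 2.01 CPM against 10.2 and 11.6, a difference of 2.65 ± 0.24 (adjusted p = 4.18e-09). Each of these promoters was low in all 3 libraries of the first series and higher in both of the second. For CHL1, CNTN4 and GRM7 the lack of overlap was a condition of their being named. A region 3648 bp from GRM5, another glutamate receptor gene (chr11:70286057-70287492), moved in the same way, from 0.527, 1.10 and 0.831 CPM to 14.2 and 16.8.

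Other promoters that were higher in the second series belong to genes of mixed function on different chromosomes. KHDRBS2, an RNA-binding regulator of splicing (chr6:60087440-60089064), had 0.527, 1.23 and 0.624 CPM against 14.8 and 16.7, a difference of 4.37 ± 0.28 (edgeR adjusted p = 2.57e-12). OCIAD2 (chr4:48814912-48816273) had 0.829, 1.10 and 1.66 CPM against 17.1 and 22.0, a difference of 4.08 ± 0.29. ZNF441, a zinc finger gene (chr19:7252390-7254042), had 1.39, 1.48 and 2.01 CPM against 27.1 and 27.3, a difference of 4.08 ± 0.22 (adjusted p = 2.86e-14). RIOX1, a nuclear oxygenase, differed by 2.05 ± 0.20 and PFN3, a profilin of the testis, by 2.40 ± 0.24. By share of calls, zinc finger genes as a family were not set apart. Of 290 ZNF promoters 19 were higher, 6.55% beside 7.65% of all protein-coding promoters, and none was lower (edgeR). ZNF441, ZNF177 and ZNF560 were the members past 4-fold.

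**Figure D2:**
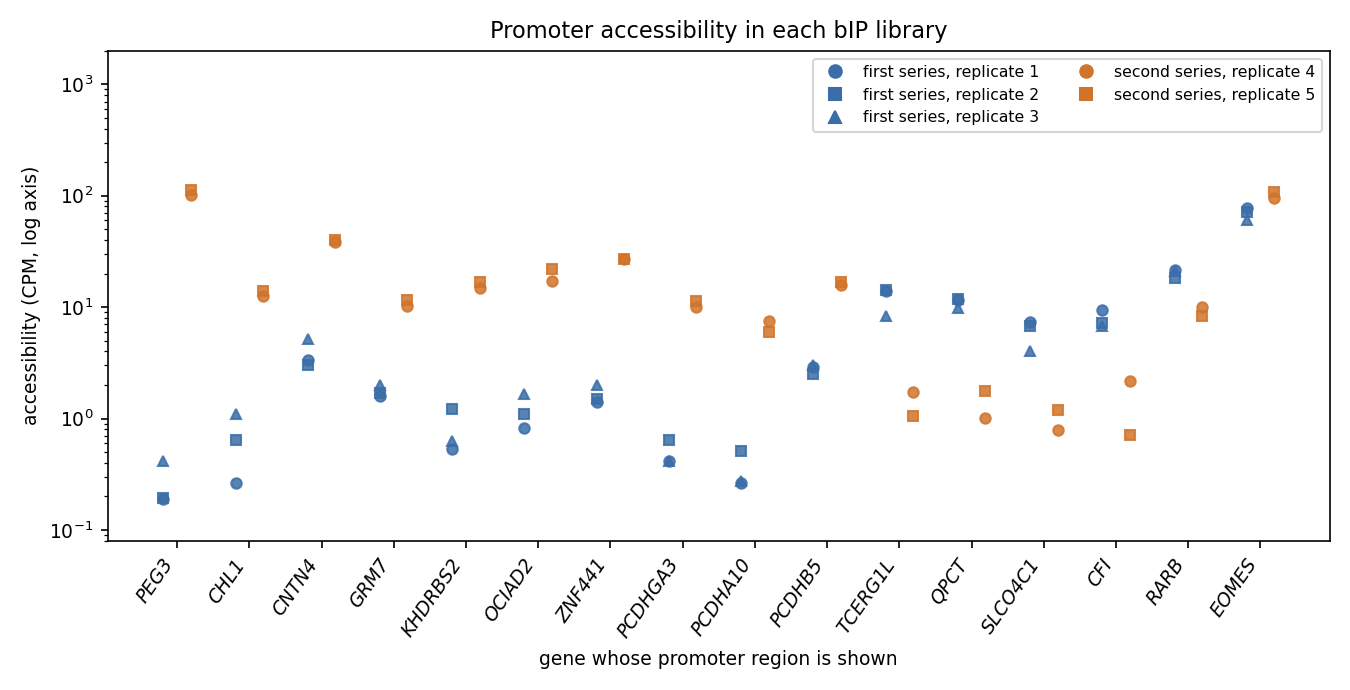
Accessibility (CPM, log y axis) of the promoter region of 16 genes (x axis) in each bIP library, with the 3 libraries of the first series at the left of each gene and the 2 of the second at the right. PEG3 goes from under 0.5 CPM in the first series to over 100 in the second; TCERG1L, QPCT, SLCO4C1, CFI and RARB go the other way, and EOMES differs little.

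Fewer promoters were closed in the second series. TCERG1L (promoter at chr10:126619894-126623667) fell from 13.9, 14.3 and 8.24 CPM to 1.75 and 1.05, a difference of −3.11 ± 0.28 (edgeR adjusted p = 4.46e-09). QPCT, glutaminyl cyclase (chr2A:53526023-53527101), had 11.6, 11.7 and 9.91 CPM against 1.00 and 1.76, a difference of −3.01 ± 0.28 (adjusted p = 6.39e-09). SLCO4C1, an organic anion transporter (chr5:81737877-81739231), had 7.31, 6.71 and 4.02 CPM against 0.786 and 1.19 (−2.62 ± 0.31). In all of them the highest second-series library lay below the lowest first-series library, which was a condition of their being named. CFI, complement factor I, had 9.38, 7.23 and 6.72 CPM against 2.18 and 0.713 (−2.42 ± 0.34), and without replicate 4 the difference was −3.40. RARB, a retinoic acid receptor, had 21.6, 18.2 and 21.1 CPM against 10.0 and 8.32 (−1.14 ± 0.19, adjusted p = 0.000101). RHOJ, a small GTPase, was lower by −1.80 ± 0.24 and DNAH6, an axonemal dynein, by −1.66 ± 0.22. S100B, a glial calcium-binding protein, had 4.78, 4.58 and 2.91 CPM against 1.35 and 1.81 (−1.39 ± 0.28, adjusted p = 0.000695).

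The clustered protocadherins were the gene list with the largest share of called promoters. These cell-surface adhesion proteins are coded by 3 tandem clusters on one chromosome, and a neuron uses few of the many alternative promoters. Of 52 genes on the list, 27 had a tested promoter region: 14 were higher in the second series and none was lower (edgeR; 3 lower at an unadjusted p under 0.05), beside 7.65% and 1.6% of all protein-coding promoters, and 11 of the 14 were at least 2-fold higher. The list median was 0.75, beside 0.25 for protein-coding promoters. PCDHGA3 (chr5:120841421-120842193) went from 0.414, 0.645 and 0.416 CPM to 10.0 and 11.4 (4.45 ± 0.29, edgeR adjusted p = 3.18e-12). PCDHA10 (chr5:120360296-120361248) went from 0.264, 0.516 and 0.277 CPM to 7.51 and 6.04 (4.29 ± 0.34), and PCDHB5 (chr5:120636918-120638598) from 2.90, 2.52 and 3.05 to 15.8 and 16.8 (2.53 ± 0.22). Not all neighbours within a cluster passed the test. PCDHAC2 stayed at 21.7, 19.2 and 15.4 CPM against 21.0 and 23.6 (0.25 ± 0.20, adjusted p = 0.417), and PCDHGB6 had 13.0, 9.17 and 10.4 CPM against 7.07 and 7.46 (−0.59 ± 0.21, adjusted p = 0.0566). The number higher stayed between 10 and 14 in every alternative that kept all 27 promoters, while 4 were lower with total counts, 3 in the fit to bIP libraries alone, 2 with promoter TMM factors or the loess correction and 1 without replicate 3. With at least 10 CPM only 7 of the promoters remained, 3 higher and 2 lower, with a median of −0.01. Near-identical members can share reads, so the split between neighbours is uncertain.

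Imprinted genes, chosen as a list because expression from 1 parental copy is set by stable epigenetic marks, held PEG3 and few others. Of 27 measured promoters 5 were higher (18.5%, beside 7.65% of all protein-coding promoters) and none lower, with a median of 0.34 beside 0.25. The number higher was 3 when any 1 bIP library was left out. DLK1, a membrane ligand of the Delta-like family, had 2.34, 2.07 and 2.49 CPM against 5.37 and 6.51 (1.37 ± 0.25, edgeR adjusted p = 0.000323). FAM50B had 4.18, 4.00 and 2.98 CPM against 7.25 and 8.46 (1.06 ± 0.23, adjusted p = 0.00175). MEST differed by 0.59 ± 0.19 (adjusted p = 0.0311), a call that was lost when any 1 bIP library was left out (adjusted p of 0.0588 or more) or the closest libraries were summed (0.111). PEG10 had 46.5, 46.3 and 31.5 CPM against 42.7 and 42.4, and SNURF 35.8, 34.5 and 24.7 against 35.8 and 42.2. The libraries of those 2 genes overlapped between the series.

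Genes that define intermediate progenitors were taken as a list, whereas the leading loci above were picked for their differences, so the sizes of the 2 cannot be compared. The list median was close to that of the imprinted genes. Of 19 measured promoters of the bIP list, 3 were higher (15.8%, beside 7.65% of all protein-coding promoters) and none lower, with a median of 0.35 beside 0.25. With any 1 of replicates 1 to 4 left out 1 call was left, without replicate 5 all 3 were lost, and the loess correction gave 2 higher and 1 lower. EOMES (chr3:27772174-27776341) had 77.0, 71.9 and 60.0 CPM against 94.5 and 108 (0.54 ± 0.18, edgeR adjusted p = 0.0425). NEUROG1, a proneural factor, had 36.9, 36.3 and 24.5 CPM against 47.1 and 48.9 (0.55 ± 0.19, adjusted p = 0.0473). SMOC1, a secreted matrix protein, had 15.9, 15.7 and 15.1 CPM against 26.3 and 28.7 (0.82 ± 0.19, adjusted p = 0.00345). The calls for EOMES and NEUROG1 were lost when any 1 bIP library was left out (adjusted p from 0.0619 to 0.325 and from 0.0579 to 0.230) and with the loess correction (0.126 and 0.0507), with the closest libraries summed (0.134 and 0.102) and with at least 10 CPM (0.0793 and 0.0751), that for NEUROG1 also with total counts (0.0519), and that for SMOC1 without replicate 5 (0.0579). HES6, an inhibitor of HES1, had a similar difference of 0.58 ± 0.21 that missed the threshold (adjusted p = 0.0551). INSM1 had 59.9, 58.0 and 43.9 CPM against 64.1 and 73.0, and NEUROD1 35.2, 33.4 and 25.6 against 40.0 and 46.6. DLL3, a Notch ligand, had a difference of −0.16 ± 0.21, PPP1R17 of 0.20 ± 0.20, NHLH1 of 0.24 ± 0.20 and NEUROD4 of 0.39 ± 0.20, none past the threshold.

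Promoters of the cells before and after the intermediate progenitor were at similar differences. Among 21 radial glial promoters, 2 were higher and none lower (median 0.34), and 9.52% higher is near the 7.65% of all protein-coding promoters. PAX6 had 7.23, 6.52 and 6.72 CPM against 11.3 and 11.9 (0.76 ± 0.19, edgeR adjusted p = 0.00684), and HES1, the main Notch effector, 27.2, 23.6 and 21.3 against 36.0 and 38.8 (0.63 ± 0.19, adjusted p = 0.0196). Without replicate 5 neither passed (adjusted p = 0.0652 and 0.173), PAX6 was lost with promoter TMM factors (0.0677), with at least 10 CPM (0.0738) and with the closest libraries summed (0.0579), and HES1 was also lost without replicate 2, 3 or 4 (0.0774, 0.0610 and 0.0566) and with the closest libraries summed (0.0863). SOX2 had 31.2, 29.5 and 22.9 CPM against 42.7 and 36.9 (adjusted p = 0.0598), VIM and NES differed by 0.39 ± 0.21 and 0.22 ± 0.20, and HOPX, a basal radial glial gene, by −0.33 ± 0.22. With total counts and with promoter TMM factors the radial glial list had 3 promoters higher and 3 lower, so its direction rests on the scaling. Among 21 promoters of excitatory neurons, 2 were higher and none lower (median 0.39), again 9.52%. With total counts, promoter TMM factors or the loess correction 2 were higher and 2 lower. TBR1, which follows EOMES in the neuronal lineage, had 48.9, 49.8 and 42.8 CPM against 69.9 and 81.0 (0.68 ± 0.19, adjusted p = 0.0118), and MAPT, the gene of tau, differed by 0.81 ± 0.21 (adjusted p = 0.00678). Without replicate 5 both missed the threshold (adjusted p = 0.178 and 0.145), and TBR1 also with the closest libraries summed (0.0663). NEUROD2, NEUROD6, BCL11B, STMN2 and MYT1L differed by 0.17 to 0.46 and none passed.

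The lists of other cell types moved alongside. With TMM factors the summed promoter accessibility of all 8 marker lists was higher in both second-series libraries than in any of the first, beside a median difference of 0.25 over all protein-coding promoters. Of those 10076 promoters 8406 lay above 0, and at 6157 the series did not overlap in one direction or the other. The lack of overlap is thus not particular to the marker lists. Scaled to total counts, a choice made after the data were seen, this held for 7 of the 8, and the glial list overlapped, at 60.6 to 68.8 against 67.4 to 68.7. The bIP list had 559 to 736 CPM in the first series and 811 to 924 in the second, the radial glial list 467 to 632 against 686 to 727, and the excitatory neuron list 578 to 678 against 767 to 866. The GABAergic list had 182 to 216 CPM against 237 to 270, choroid plexus and cortical hem 35.5 to 38.5 against 47.5 to 54.0, mesenchyme 57.8 to 66.3 against 76.3 to 83.8, glia 53.6 to 68.1 against 73.5 to 75.7, and pluripotent cells 46.1 to 54.0 against 65.2 to 68.9. All 9 measured housekeeping promoters also lay above 0, with a median of 0.32 and none called (edgeR; 4 higher at an unadjusted p under 0.05). The part that level and scaling have in these sums was not tested.

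Single members of those lists passed the test, where 7.65% of all protein-coding promoters were higher with a median of 0.25. For choroid plexus and cortical hem 3 of 7 were higher and none lower (median 0.50). They were MSX1, LMX1A and the folate receptor FOLR1, at 3.62, 3.16 and 2.84 CPM against 6.85 and 6.65 (1.06 ± 0.25, edgeR adjusted p = 0.00309), and with promoter TMM factors all 3 missed the threshold (0.101, 0.0596 and 0.0509). Only 1 of the 3 was left without replicate 2, without replicate 5 and with the closest libraries summed. The GABAergic list had 4 of 15 higher and none lower (median 0.26), among them the vesicular GABA transporter SLC32A1 (0.93 ± 0.21, adjusted p = 0.00297), which was lost without replicate 5 (0.0801), as were the other calls of the list. Its calls numbered 2 without replicate 1, and with total counts, promoter TMM factors or the loess correction 2 were higher and 1 lower. Of 23 regional patterning genes 5 were higher and none lower (median 0.40), with SIX3 at 6.48, 6.52 and 8.17 CPM against 11.6 and 14.1 (0.87 ± 0.20, adjusted p = 0.00314) and LHX9 at 0.81 ± 0.19 (adjusted p = 0.00328). Both missed the threshold without replicate 5 (0.0765 and 0.0588), which left 1 call on the list, and it had 3 calls without replicate 1, 3 or 4. Mesenchyme had 0 of 9 called (edgeR; 3 higher and 1 lower at an unadjusted p under 0.05), pluripotent cells 0 of 5 (1 and 1), and glia 1 higher and 1 lower of 8.

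The shares called on lists of cell state are read beside the 7.65% of all protein-coding promoters. Of 18 immediate early and stress genes 2 were higher (11.1%) and none lower, with HSPA1B at 41.9, 39.6 and 33.9 CPM against 67.4 and 71.9 (0.86 ± 0.18, edgeR adjusted p = 0.00139). HSPA1B has a near-identical neighbour, HSPA1A, and reads could be split between them. Of 17 cell cycle genes 1 was higher (5.88%), the cyclin CCND2, at 19.6, 20.3 and 20.9 CPM against 36.8 and 42.6 (0.97 ± 0.20, adjusted p = 0.000832). The cell cycle median was 0.10, and it was −0.10 with total counts and with promoter TMM factors and −0.18 after the loess correction. Hypoxia and glycolysis had 2 of 13 higher (15.4%), the Notch pathway 2 of 8 and morphoregulatory genes, which shape cells and their adhesion, 2 of 16 (12.5%), with none lower in any of them. Both hypoxia calls were lost without replicate 2, 3, 4 or 5 and with the closest libraries summed, and 1 was lost without replicate 1. Both Notch calls were lost without replicate 2 or 5 and with the closest libraries summed, and 1 without replicate 3 or 4. The stress list had 1 call without replicate 1, 2, 3 or 5, and the morphoregulatory list 1 without replicate 1, 3, 4 or 5.

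**Figure D3:**
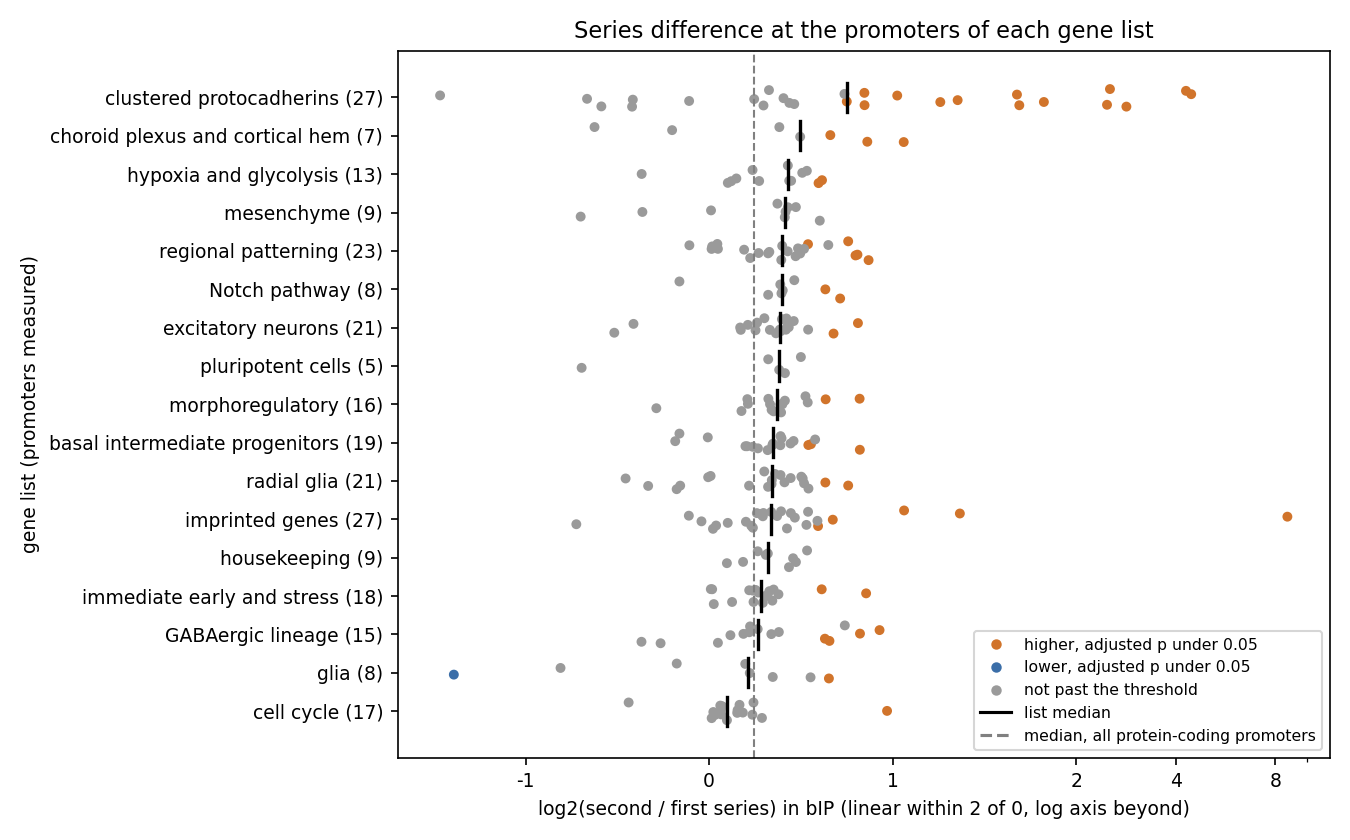
Log2 difference between the series at the promoters of each gene list (one point a gene, x axis linear within 2 of 0 and logarithmic beyond), with the list median as a black bar and the median of all protein-coding promoters (0.25) as a dashed line. Most lists are centred to the right of that line with few called members; 14 of 27 clustered protocadherins are called higher, and PEG3 stands alone at 8.70.

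Differences also ran over long stretches of chromosome. The genome was split into windows of 1 Mb, and 2573 held at least 20 tested regions. In 16 of them the median difference was −1 or lower, and 383 of their 591 regions were called lower. In 3 windows it was 1 or higher, and 119 of their 176 regions were called higher. The middle 90% of windows lay between −0.52 and 0.25. The low windows held few genes: a median of 0 protein-coding promoters, beside 3 over all windows, and promoters were 3.21% of their regions, beside 10.6%.

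The lowest median, −3.60, was on chromosome 12 from 123 to 124 Mb, where all 24 regions were lower. Their summed accessibility was 41.2, 40.5 and 32.1 CPM in the first series and 3.06 and 1.95 in the second. A region in it 52779 bp from AC025160.1 (chr12:123714731-123715634) had 4.67, 4.20 and 4.23 CPM against 0.0873 and 0.0950, both under the floor of their libraries. The adjoining megabase, with GLT1D1, SLC15A4 and TMEM132C, had a median of −2.16. On chromosome 2B from 11 to 12 Mb 24 of 26 regions were lower (median −3.02), with sums of 37.4, 39.0 and 32.5 CPM against 5.24 and 4.23. On chromosome 6 the windows from 62 to 66 Mb and from 59 to 60 Mb were all low, down to −2.52, while the KHDRBS2 promoter at 60 Mb was higher. Chromosome 8 had medians of −2.27 and −2.33 from 132 to 134 Mb.

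Other low windows held named genes. The window of TCERG1L, chromosome 10 from 126 to 127 Mb, had 57 of 80 regions lower (median −1.96), one of them 134213 bp from the gene (chr10:126757173-126758052), with 7.46, 6.97 and 8.66 CPM against 0.349 and 0.380. The window of AJAP1, an adherens junction protein, on chromosome 1 from 1 to 2 Mb had 41 of 60 lower and 1 higher (median −2.09). Regions listed with AL805961.1 (chr1:1072955-1074519) and Z98747.1 (chr1:1526144-1528002) in it had 9.91, 9.49 and 7.27 CPM against 0.611 and 0.618, and 10.2, 9.75 and 9.77 against 1.00 and 0.570. That of the GTPase RHOJ and the potassium channel KCNH5 on chromosome 14 had 24 of 56 lower (median −1.14). The promoters of KCNH5 and MDGA2, in low windows of chromosome 14, differed by only −0.28 and −0.09.

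The 3 high windows held CHL1 and CNTN6 on chromosome 3 and the PEG3 locus. From 0 to 1 Mb on chromosome 3, around CHL1, 57 of 74 regions were higher and none lower, with a median of 1.89 and sums of 45.9, 53.5 and 77.9 CPM against 266 and 243. From 1 to 2 Mb, around CNTN6, 20 of 33 were higher (median 1.29). On chromosome 19 from 46 to 47 Mb 42 of 69 were higher and none lower (median 1.34), with sums of 453, 463 and 382 CPM against 831 and 925. One of its regions, 3889 bp from the olfactory receptor pseudogene OR5AH1P (chr19:46580235-46581368), had 0.188, 0.452 and 0.346 CPM against 9.26 and 8.13 (4.80 ± 0.32). Zinc finger promoters in that window differed little next to PEG3: ZNF835 by 0.62 (edgeR adjusted p = 0.0358) and ZNF471 by 0.19 (0.563). The next highest medians, 0.96 and 0.71, were also on chromosome 19, from 20 to 22 Mb.

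**Figure D4:**
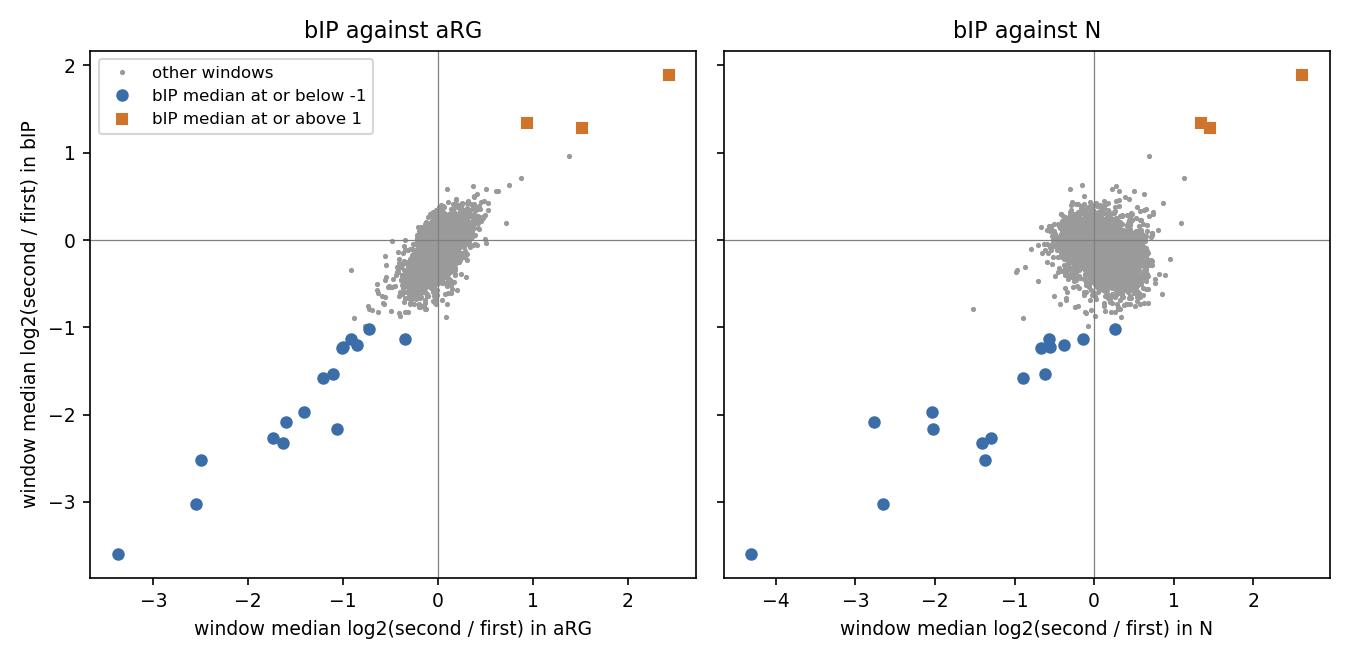
Median log2 difference between the series in bIP (y axis) against the same in aRG (left) and in N (right), one point for each of 2573 windows of 1 Mb. The 16 windows at or below −1 in bIP are all below 0 in aRG and 15 of them are below 0 in N, and the 3 windows at or above 1 are above 0 in both.

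The same contrast between the series was taken in the other cell types, whose libraries are not bIP libraries. In N the second series had 9.23% of regions higher and 6.48% lower, and in aRG, with 1 library in the second series, 2.45% and 1.21%. Of the 16 low windows 16 were also below 0 in aRG and 15 in N, and the exception was chromosome 9 from 8 to 9 Mb, at −1.02 in bIP and 0.27 in N. The low windows had a median of −1.16 in aRG and −1.09 in N, but chromosome 14 from 43 to 44 Mb was only at −0.14 in N. The share of all windows below 0 in aRG or N is not given here, so the counts by sign have no background. Over all windows the correlation with bIP was 0.735 for aRG and 0.073 for N, and over all regions 0.482 and 0.198, as a description only. Of the 485 regions at least 4-fold higher in bIP, 58.8% were called higher in N and 52.2% in aRG, and of the 1070 at least 4-fold lower, 33.1% and 27.4% were called lower. Of the 20 promoters at least 4-fold higher, 18 were also called higher in N and 17 in aRG. Of the 6 lower ones, 4 and 5 were called lower. At QPCT the difference was −3.65 in N and −3.29 in aRG, at CNTN4 2.85 and 3.22, and at PCDHGA3 4.33 and 4.32.

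The difference between the cell types was tested directly, as the series difference in bIP minus that in N. It was above 0 in 8203 regions (4.31%) and below 0 in 8369 (4.39%) at an adjusted p under 0.05. The sum of 16572 ranged from 5020 without bIP replicate 5, 10632 without bIP replicate 2 and 10714 without bIP replicate 3 to 28865 without N replicate 3 and 38724 without N replicate 4, and it was 5615 without N replicate 2. Against aRG, 18 regions differed (0.00945%, edgeR), beside 15074 at an unadjusted p under 0.05. That number was 7, 4, 8 and 1 without bIP replicate 1, 2, 4 or 5. It was 2 without aRG replicate 2 and 0 without aRG replicate 1, where 11382 had an unadjusted p under 0.05. It was 587 with total counts, 362 with promoter TMM factors, 322 after the loess correction, 79 with DESeq2, 982 with at least 10 CPM and 0 with the closest libraries summed (edgeR; 9077 at an unadjusted p under 0.05).

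At the leading loci the difference from N did not pass the threshold for PEG3 (1.42, edgeR adjusted p = 0.141), CHL1 (−1.24, 0.175), CNTN4 (0.51, 0.320), KHDRBS2 (0.32, 0.691), OCIAD2 (−0.48, 0.557), TCERG1L (−0.22, 0.756) or QPCT (0.64, 0.358). A p above the threshold does not show that the 2 cell types moved alike. Over all protein-coding promoters 246 of 10076 differed from N at an adjusted p under 0.05. The 5 with the smallest p in each direction were named for this test. ZNF441 was an exception, with 4.08 in bIP and 2.96 in N (difference 1.12 ± 0.34, adjusted p = 0.0344). WNT5A, a ligand of the non-canonical Wnt pathway (region at chr3:55382994-55383803, 987 bp from the gene), had 6.18, 4.78 and 4.71 CPM in first-series bIP and 16.5 and 20.2 in the second, but 27.1 and 26.3 against 18.7 and 26.9 in N, a difference of 2.02 ± 0.31 (adjusted p = 0.000182). KRTAP16-1, a hair keratin associated gene whose region lies near KRTAP29-1, had 5.09, 4.71 and 4.30 CPM against 16.2 and 23.5 in bIP and 10.2 and 12.8 against 10.7 and 9.20 in N (2.27 ± 0.32, adjusted p = 5.99e-05). In the other direction KCNJ8, a potassium channel, had 8.85, 8.07 and 6.65 CPM against 4.63 and 4.28 in bIP and 5.28 and 5.63 against 8.41 and 8.91 in N (−1.50 ± 0.31, adjusted p = 0.00259). The KCNJ8 difference within bIP, −0.83, missed the threshold without replicate 1 or 5 and with the closest libraries summed (0.0519, 0.0833 and 0.0613).

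**Figure D5:**
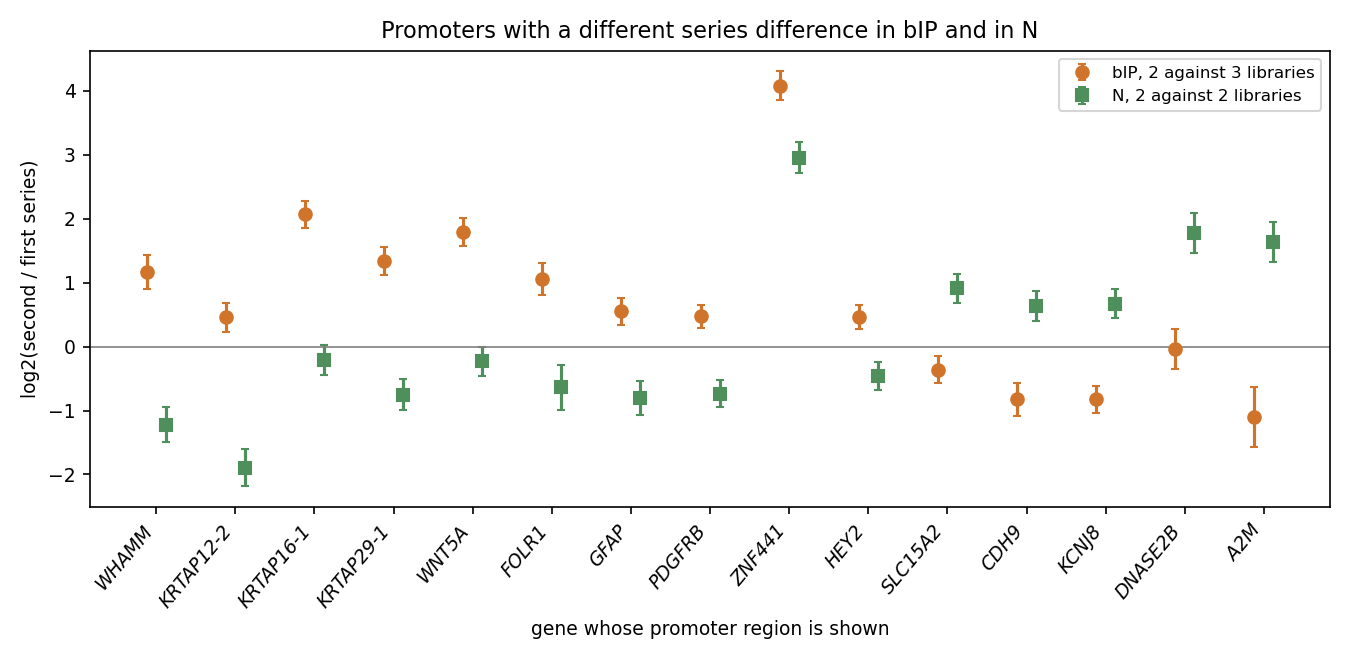
Log2 difference between the series (y axis, with standard errors) at the 15 named promoters (x axis) whose difference was not the same in bIP and in N at an adjusted p under 0.05. At 10 of them bIP lies above N and at 5 below. The 5 promoters with the smallest p of this test in each direction were named by rule, so that split follows in part from the choice. At ZNF441 both cell types are far above 0.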

How the data were processed

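Bulk ATAC-seq counts were used for 14 libraries of 4 sorted cell types, of which 5 are bIP. In the authors' deposited table the values are raw counts, whole numbers with no depth correction. The tools bcl2fastq 2.20.0 and MACS2 come from the submitters' processing notes. Aligner, counter and any shift of reads to the cut site: not given in the sources used here. Coordinates are gorGor6, from the region names, counted from 1. The table's 13823 regions without a gorilla position, all at 0 counts, and 8 repeats were left out. The deposited peak sets, 1 per cell type over both series, were not used here. Distances to a gene were read as distances from its transcription start, an assumption. Protein-coding genes are those whose name matched the RefSeq table of NHGRI_mGorGor1-v2.1_pri (12952 of 39300 names). Exon and intron positions were not used here.

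Regions were kept by filterByExpr on the bIP libraries. edgeR 4.0.16 (R 4.3.3) fitted a quasi-likelihood model with TMM scaling and 1 mean for each cell type and series to all 14 libraries (7 residual degrees of freedom), with Benjamini-Hochberg adjustment over every region kept. CPM values use TMM factors and are given as mean ± SD where averaged. Floors of 3 counts hold for counting error alone, since reads copied by PCR cannot be told from separate molecules here. Tested on simulated data for this contrast over 190524 regions, 34 of 100 regions changed 2-fold and 95 of 100 changed 4-fold were called, with 6 false calls. The simulation gave all cell types and series the same mean apart from those changes, with a fixed spread between libraries. Only well-counted regions were changed, and far fewer than were called in the data, so recovery and false calls in the data may differ.

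A list gene was represented by its promoter region with the highest mean bIP count; lists are described by counts and medians, with no set test. Named promoters were the 10 with the smallest p and, at 1 CPM or more, the 5 with the largest difference in each direction whose series did not overlap, 4 distal regions a direction, up to 4 genes a list, a fixed set of lineage genes, 5 promoters a direction for bIP against N, and the 5 lowest and 5 highest windows. Of 26 lineage genes 23 had a tested promoter region. Other genes in the low and high windows, other list members and the 4-fold promoters ZNF177, ZNF560 and PCK1 were named after their values were seen. The contrast, lists and rules were chosen with earlier results of these data known. Alternatives were other scalings, a loess correction for level (limma 3.58.1), other filters, DESeq2 1.42.0, bIP libraries alone, the closest libraries summed, and each library left out. The closest libraries were replicates 1 and 2 of bIP and replicates 1 and 2 of aRG. Summing them left aRG with 1 library in each series, so the counts against aRG in that setting rest on single libraries of aRG. Some named promoters are not reported here.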

Additional observations from a re-analysis of the deposited data

Results flagged for a closer look

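The difference between the series was not the same in bIP as in N at 8203 regions where it was above that in N and at 8369 where it was below (edgeR, adjusted p under 0.05). Against aRG it differed at 18 regions.

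Among named promoters 10 had a larger difference in bIP than in N, each by the test of that difference. The 5 promoters with the smallest p of that same test in each direction were named by rule, so passing it is no further support for them. Over all protein-coding promoters 246 of 10076 differed from N. WHAMM, an actin nucleation factor, stood at 2.39 (edgeR adjusted p = 0.000263), with 1.73, 1.74 and 2.70 CPM against 4.45 and 4.66 in bIP and 7.95 and 7.28 against 2.54 and 4.00 in N. KRTAP12-2 stood at 2.35, with a difference of 0.46 in bIP that did not pass and −1.89 in N. KRTAP16-1 stood at 2.27, KRTAP29-1 at 2.09 and WNT5A at 2.02. FOLR1 stood at 1.70, ZNF441 at 1.12, the astrocyte gene GFAP at 1.36, the pericyte gene PDGFRB at 1.21 and the Notch target HEY2 at 0.92. In bIP alone GFAP, PDGFRB and HEY2 missed the threshold (adjusted p = 0.0749, 0.0669 and 0.0927).

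The other 5 had a smaller difference in bIP than in N. The peptide transporter SLC15A2 stood at −1.27, the cadherin CDH9 at −1.46, KCNJ8 at −1.50, DNASE2B at −1.81 and the protease inhibitor A2M at −2.74. A2M had 0.716, 0.581 and 0.416 CPM against 0.306 and 0.238 in bIP, and 1.44 and 1.44 against 4.53 and 4.43 in N. At DNASE2B the bIP difference was −0.03 and that in N 1.78.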

How the results depend on the processing

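No paired analysis was possible because the first bIP series has replicates 1 to 3 and the second 4 and 5, so that no number is shared. Of 119 named regions 69 were called, and none of the called ones changed direction under any setting. The call was lost at 26 when any 1 bIP library was left out, 24 of them without replicate 5, at 20 with the closest libraries summed and at 6 after the loess correction. The limits are 2 libraries in the second series, 1 cell line and a floor of 3 counts. The cause of the changes below was not tested, also where fewer regions or libraries entered the fit. With a 2-fold minimum 7857 regions were higher, and 566 promoters were higher and 355 lower. With at least 10 CPM in 2 bIP libraries, which left 28669 regions, 3252 were higher and 3104 lower, with 770 and 1019 promoters, 2447 regions differed from N and 982 from aRG. With the closest libraries summed the counts were 9000 and 5370, with 862 and 223 promoters, 8219 regions against N and 0 against aRG (edgeR; 9077 at an unadjusted p under 0.05, and 79 by DESeq2 with all libraries). With total counts they were 10144 and 18595, with 1106 promoters lower and 587 regions against aRG. With TMM factors from promoters, chosen after seeing the data, 8892 regions were higher, 960 promoters lower and 362 regions differed from aRG. The loess correction gave 1243 promoters lower and 322 regions against aRG. DESeq2 gave 5406 regions and 252 promoters lower, 10309 regions against N and 79 against aRG. Leaving out 1 library at a time gave 8109 to 13438 regions higher and 3175 to 8560 lower, 631 to 1588 promoters higher and 138 to 468 lower, 5020 to 38724 regions against N and 0 to 19 against aRG (edgeR; 11382 at an unadjusted p under 0.05 where the count was 0). Leaving out N and aRG libraries was also chosen after seeing the data. Windows at or below −1 numbered 16, but 25 with total counts or promoter TMM factors, 8 at 2 Mb and 0 with the minimum of 10 CPM.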

Other observations

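The rest of the promoters that differed at least 4-fold belong to genes with tissue-restricted roles and lay at low levels. IL1RL2, an interleukin-36 receptor subunit (chr2A:9505271-9506665), had 0.301, 0.516 and 0.624 CPM in the first bIP series and 3.06 and 4.37 in the second (3.02 ± 0.35). GPR25, an orphan G protein-coupled receptor (chr1:171614848-171616304), had 0.678, 1.16 and 0.762 CPM against 5.81 and 7.65 (2.98 ± 0.30). The testis kinase gene TSSK6 had 0.226, 0.323 and 0.208 CPM against 1.62 and 1.76, and the meiotic gene MEI1 0.490, 0.516 and 0.624 against 1.96 and 2.52. CD180, a Toll-like receptor relative, had 2.56, 2.90 and 2.29 CPM against 10.5 and 15.9 (2.35 ± 0.24), and its difference exceeded that in N by 1.64 (edgeR adjusted p = 0.00344). On the lower side the serpin SERPINA11 had 2.15, 2.13 and 0.970 CPM against 0.393 and 0.380, and PCK1, an enzyme of gluconeogenesis, 0.942, 1.87 and 0.346 against 0.218 and 0.285. Each of these genes was picked out after its values were seen.

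Among families taken by name, 22 of 215 solute carrier promoters were higher and 8 lower in the second series, 10.2% and 3.72%, beside 7.65% and 1.6% of all protein-coding promoters.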
